A study of Mus musculus with 6 samples.

Results

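The 9 genes described here, Meis1, Meis2, Meis3, Pbx2, Pbx3, Pbx4, Pknox1, Pknox2 and Tgif1, encode homeodomain transcription factors of the TALE class, named for a 3-amino-acid loop extension in the homeodomain. They were chosen by gene symbol, and all 9 were found among the 49585 gene identifiers of the count tables. The TALE class holds further genes, so sums and shares below are over these 9 alone. RNA was sequenced from tumoroids, which are intestinal adenoma cells cultured in Matrigel, with 3 knock-out and 3 wild-type libraries. The knock-out cultures carried the genotype APC min/+, Villin-Cre and IKKa FL/FL, that is 1 mutant copy of Apc, Cre driven by the Villin promoter of the intestinal epithelium, and floxed alleles of Chuk, the gene of the kinase IKKa. The wild-type cultures carried APC min/+ and Villin-Cre with IKKa +/+, so the Apc mutation and Cre were shared by both genotypes, as were the C57BL/6 strain and a medium with N2, B27, the ROCK inhibitor Y27632, Noggin, R-spondin, EGF and basic FGF. The labels call the libraries biological replicates and do not say whether they came from separate mice, so the p-values measure only the spread between these libraries.

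As background, Hox proteins bind DNA weakly and with little sequence preference on their own, and Pbx proteins bind beside them and sharpen the choice of site. Meis and Pknox proteins (Pknox is also called Prep) join Pbx through a shared amino-terminal region, hold it in the nucleus and keep it stable, while Tgif proteins bind the same kind of site as Meis and Pknox but act mainly as repressors, and also restrain Smad proteins of the TGF-beta pathway and retinoic acid receptors. In the gut, Hox genes mark positions along the head-to-tail axis.

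How the genes group by sequence is visible in the DNA that encodes the recognition helix of the homeodomain, the part that lies in the major groove. The 30 bases of coding sequence shown for each gene come from the GENCODE transcripts of GRCm38 and are written 5′ to 3′, with capitals for the 4 codons of the signature by which the window was placed.
Meis1: gtgaacaatTGGTTTATTAATgcccggaga
Meis2: gtgaacaacTGGTTTATCAATgccagaaga
Meis3: gtgaacaacTGGTTTATTAATgcccggaga
Pbx2: gtttccaacTGGTTCGGTAACaagcgaatt
Pbx3: gtatccaacTGGTTTGGCAACaaacgaatc
Pbx4: gtctctaacTGGTTTGGCAACaaaagaatc
Pknox1: gtcaacaacTGGTTCATCAACgcgagaaga
Pknox2: gtaaacaacTGGTTCATCAATgccaggagg
Tgif1: gtctgtaacTGGTTCATCAACgcccgccgc
The third codon in capitals was an isoleucine codon, ATT or ATC, in Meis1, Meis2, Meis3, Pknox1, Pknox2 and Tgif1, and a glycine codon, GGT or GGC, in Pbx2, Pbx3 and Pbx4. Meis1 and Meis3 shared 29 of the 30 bases, Pbx3 and Pbx4 shared 27, and Meis1 and Pbx4 shared 14. Despite this likeness in the helix, whole transcripts were easy to tell apart: of the 31-base words in the Meis1, Meis2 and Meis3 transcripts, Meis1 and Meis2 shared 2, and Meis3 shared none with another of the 9 genes. With other annotated genes, on either strand, 17.6% of the Meis1 words, 5.56% of the Pbx2 words and 2.17% of the Pknox1 words were shared. For the remaining 6 genes at most 0.384% were. Most of the sharing was with genes annotated over the same exons. Gm37818 held 1000 of the 1887 shared Meis1 words, Gpsm3 198 of 202 for Pbx2, and AC166172.4 127 of 154 for Pknox1. The antisense gene Gm16140 covers another 896 bases of Meis1 exons. Such words are 1 stretch of genome under 2 gene names and not a repeat elsewhere. How reads with several matches, or reads in exons of overlapping genes, were counted is not given in the sources used here.

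Library totals ran from 26785922 to 31875723 counts in knock-out tumoroids and from 20749747 to 29752507 in the wild type. Chuk had 28.9, 24.4 and 34.9 CPM (TMM-scaled counts by library size) in knock-out tumoroids and 101, 106 and 95.7 CPM in the wild type, with no overlap. Knock-out replicate 2 differed more from its 2 fellow libraries, with a chi-square of counts per degree of freedom of 36.4 and 37.0, than they did from each other at 5.64. The knock-out libraries had counts for 4 Y-linked genes and almost none for Xist, the reverse of the wild-type libraries, so genotype and the sex of the source cannot be told apart in any result here. No member lies on chromosome X or Y. Mitochondrial genes took 2.15 to 3.46% of counts in knock-out libraries and 6.18 to 7.58% in wild-type libraries, and the part of this difference in the results was not tested. Of 11 markers of intestinal epithelium, 10 were detected in every library. The exception was Cdx1, an intestinal homeobox gene, with 0 counts in the knock-out against 495 in the wild type. Cdx2 averaged 20.6 ± 1.30 CPM in knock-out tumoroids and 193 ± 10.6 CPM in the wild type (SD, n = 3 each). Epcam was also lower, at 411 ± 12.9 CPM in knock-out tumoroids and 915 ± 30.6 CPM in the wild type. Krt20 was higher, at 24.5 ± 4.39 CPM in knock-out tumoroids and 1.84 ± 0.963 CPM in the wild type. By the test given below, 4 of the 11 were higher, 5 lower and 2 did not pass. Over all genes tested 57.4% passed. Cdx1 passed the filter only through the wild type.

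Of the 9 genes, 8 passed the filter on low counts. Comparing knock-out with wild-type libraries, 4 rose (Meis1, Meis3, Pbx4 and Tgif1), 1 fell (Pknox1) and 3 did not pass the test (Meis2, Pbx2 and Pbx3), by the quasi-likelihood test of edgeR with Benjamini-Hochberg adjustment over all genes and a threshold of 0.05. Pknox2 was not tested. Over all 13759 genes tested, 57.4% passed, 30.4% as higher and 27.0% as lower, so 5 of 8 is near the share in the whole transcriptome. The median log2 fold change of the 8 was 0.22, against 0.00 over all genes tested, and the median size of the change was 0.49, against 0.46. Changes of at least 2-fold were found for 2 of the 8, Meis3 and Pbx4, against 26.7% of all genes tested.

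**Figure D1:**
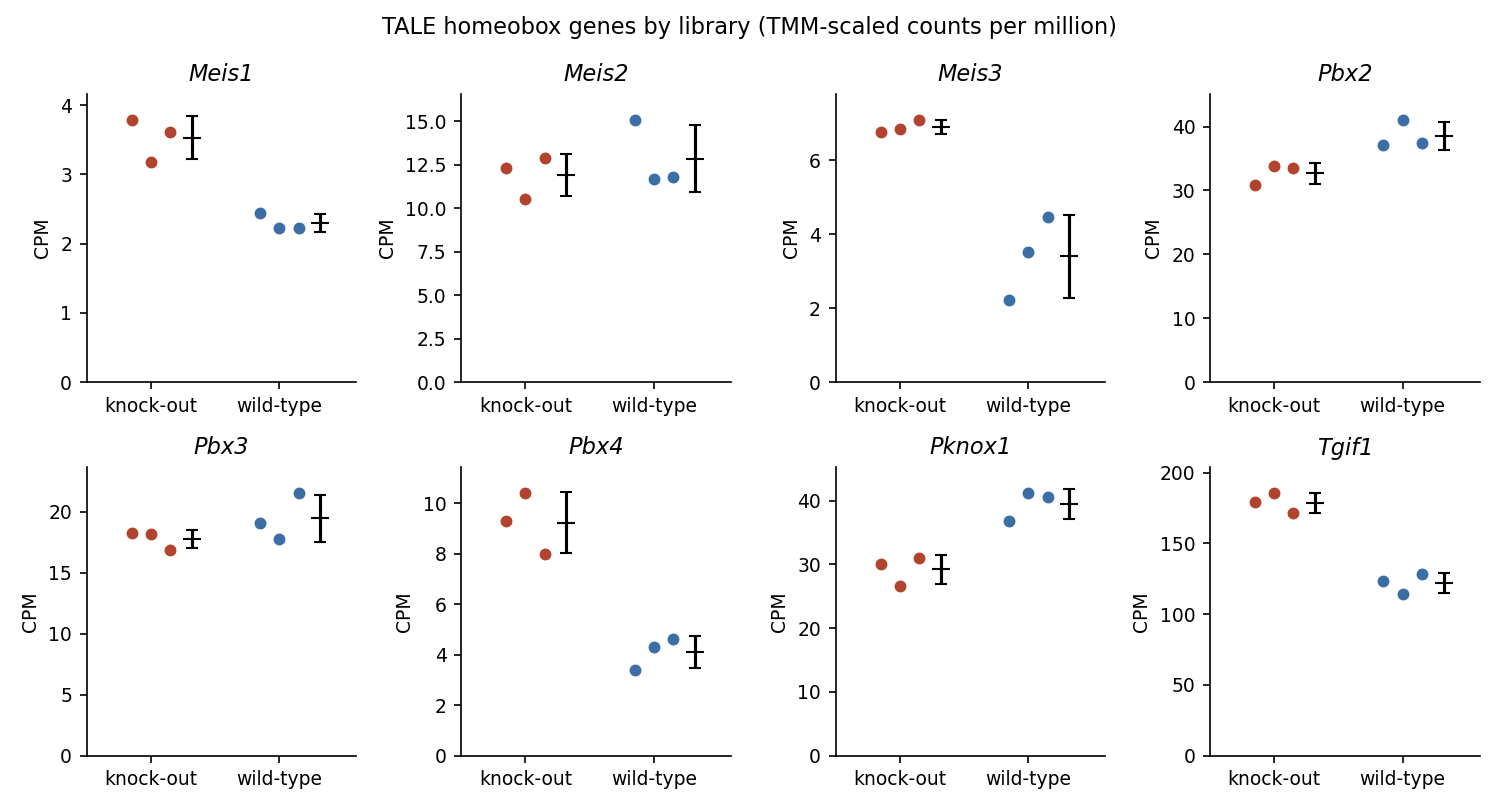
TMM-scaled CPM (linear axes from 0) of the 8 tested TALE genes, with 1 point for each of 3 knock-out (left) and 3 wild-type (right) libraries, and a bar with caps for the mean and SD. The genotypes do not overlap for Meis1, Meis3, Pbx2, Pbx4, Pknox1 and Tgif1, and overlap for Meis2 and Pbx3.

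Meis proteins are the partners that bring Pbx into the nucleus. Meis3 (ENSMUSG00000041420, GRCm38 chromosome 7, 16175090 to 16186504, plus strand), known in fish and frog embryos for hindbrain patterning, had 6.76, 6.85 and 7.10 CPM in the knock-out libraries and 2.21, 3.53 and 4.46 CPM in the wild-type libraries. The knock-out values were close together, and the wild-type values were spread over a wider range that did not reach them. Meis3 was 2.06-fold higher in the knock-out (log2 fold change 1.04, standard error 0.24, edgeR adjusted p = 0.00281). These values rest on 617 counts in knock-out tumoroids and 259 in the wild type.

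Meis1 (ENSMUSG00000020160, chromosome 11, 18879817 to 19018985, minus strand), a Hox partner best known from blood stem cells and leukaemia, was the least abundant of the detected genes. It had 3.79, 3.18 and 3.61 CPM in knock-out tumoroids and 2.44, 2.23 and 2.23 CPM in the wild type, without overlap. The difference was 1.53-fold (log2 fold change 0.62, standard error 0.24, edgeR adjusted p = 0.0454) on 46 to 120 counts per library. This call was not held firmly: it was lost when any 1 of the 6 libraries was left out (adjusted p from 0.0547 without knock-out replicate 2 to 0.138 without knock-out replicate 1) and under 7 of 11 other settings, 1 of them a threshold of 0.01, while the log2 fold change stayed between 0.56 and 0.67.

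Meis2 (ENSMUSG00000027210, chromosome 2, 115863064 to 116065839, minus strand), which acts in limb, heart and brain development, had 12.3, 10.6 and 12.9 CPM in knock-out tumoroids and 15.1, 11.7 and 11.8 CPM in the wild type. The genotypes overlapped, with wild-type replicate 1 above all other libraries. The log2 fold change was -0.12 with a 95% interval from -0.46 to 0.23 (adjusted p = 0.56), so a difference of up to 1.37-fold lower or 1.17-fold higher is within the interval, and the sign turned without wild-type replicate 1 (log2 fold change 0.02). Within each library, which needs no scaling between libraries, the Meis3 level per kilobase was 2.21 ± 0.218 times that of Meis2 in knock-out tumoroids and 1.05 ± 0.448 times in the wild type (SD, n = 3 each). The Meis1 level per kilobase was 0.352, 0.345 and 0.320 of that of Meis2 in the knock-out libraries and 0.185, 0.218 and 0.216 in the wild-type libraries. Both ratios were higher in every knock-out library than in any wild-type library. The ratio of Meis3 to Meis1 overlapped, at 5.92 to 7.15 in the knock-out and 3.00 to 6.64 in the wild type. All annotated exons cover 3173 bases for Meis3 and 12043 for Meis2, against 1925 and 5498 for their longest transcripts. Which of Meis3 and Meis2 is higher in the wild type depends on the length used, but the comparison between genotypes does not.

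Pbx proteins are the direct partners of Hox proteins. Pbx4 (ENSMUSG00000031860, chromosome 8, 69832491 to 69872292, plus strand), which in the adult mouse is known mainly from the testis, showed the largest fold change of the 8 tested genes. It had 9.31, 10.4 and 8.002 CPM in knock-out tumoroids and 3.41, 4.31 and 4.64 CPM in the wild type. Every knock-out library was above every wild-type library, and the difference was 2.25-fold (log2 fold change 1.17, standard error 0.20, edgeR adjusted p = 0.000319). Of all genes tested, 23.2% had a larger change in either direction.

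Pbx2 (ENSMUSG00000034673, chromosome 17, 34591266 to 34597400, plus strand), a broadly expressed member, had 30.8, 33.8 and 33.5 CPM in knock-out tumoroids and 37.1, 41.1 and 37.4 CPM in the wild type. The genotypes did not overlap, but the log2 fold change of -0.23 (standard error 0.10, 95% interval from -0.45 to -0.02, adjusted p = 0.0574) missed the threshold over all genes. It passed without knock-out replicate 2 (adjusted p = 0.0212). Non-overlap was found for 6 of the 8 genes, against 63.1% of all genes tested.

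Pbx3 (ENSMUSG00000038718, chromosome 2, 34171457 to 34373142, minus strand), which in mice is needed for breathing control by the hindbrain, had 18.3, 18.2 and 16.9 CPM in knock-out tumoroids and 19.1, 17.8 and 21.5 CPM in the wild type. The ranges overlapped and the log2 fold change was -0.14 with a 95% interval from -0.41 to 0.13 (adjusted p = 0.37), so falls of more than 1.32-fold and rises of more than 1.096-fold lie outside the interval. The Pbx4 level per kilobase was 1.43 ± 0.139 times that of Pbx3 in knock-out tumoroids and 0.585 ± 0.0884 times in the wild type. By the length of all annotated exons, their order was thus reversed between the genotypes in all libraries. These lengths are 2217 bases for Pbx4 and 6109 for Pbx3, against 1560 and 2858 for their longest transcripts. The order in the knock-out depends on which length is used.

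The Pknox genes are represented by 1 expressed member. Pknox1 (ENSMUSG00000006705, chromosome 17, 31564734 to 31607693, plus strand), a broadly expressed Pbx partner needed for early mouse development, had 29.99, 26.6 and 31.04 CPM in knock-out tumoroids and 36.8, 41.2 and 40.6 CPM in the wild type. It fell 1.35-fold (log2 fold change -0.43, standard error 0.10, edgeR adjusted p = 0.00335), and all knock-out libraries were below all wild-type libraries. Pknox2 (ENSMUSG00000035934, chromosome 9, 36890982 to 37147407, minus strand), a paralog with a more restricted pattern, had 0 counts in all 6 libraries, which allows up to 0.0336 CPM over the pooled knock-out libraries and 0.0387 CPM over the pooled wild-type libraries, for counting error only.

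Tgif1 (ENSMUSG00000047407, chromosome 17, 70844205 to 70853546, minus strand), the repressor of the group, was its most abundant gene. It had 179, 185 and 171 CPM in knock-out tumoroids and 123, 114 and 129 CPM in the wild type. The lowest knock-out library was above the highest wild-type library, and the difference was 1.46-fold (log2 fold change 0.55, standard error 0.08, edgeR adjusted p = 6.38e-05). It also had the smallest p of the 8 genes, on 2357 to 5671 counts per library. Set against Pknox1, which competes for the same kind of site, the Tgif1 level per kilobase was 7.36, 8.60 and 6.805 times as high in the knock-out libraries and 4.13, 3.42 and 3.90 times as high in the wild-type libraries. Because Tgif1 was higher and Pknox1 lower in every knock-out library, these ratios could not overlap, and their separation adds no further result.

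**Figure D2:**
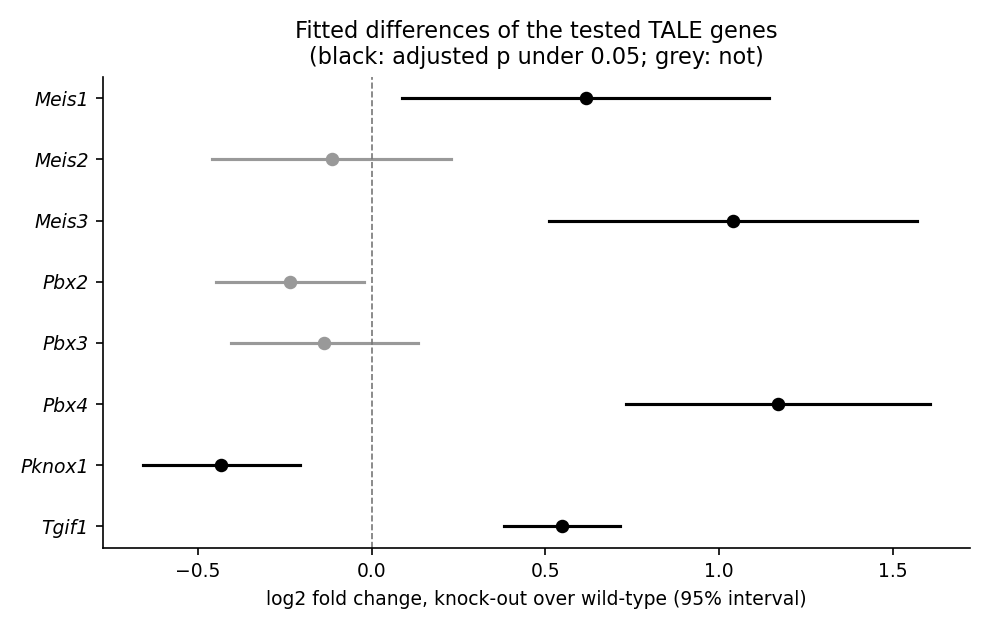
Fitted log2 fold changes, knock-out over wild-type, of the 8 tested TALE genes (points) with 95% intervals (lines) on a log2 axis. Black marks an adjusted p under 0.05: Meis1, Meis3, Pbx4 and Tgif1 to the right of 0 and Pknox1 to the left, while Meis2, Pbx2 and Pbx3 are grey.

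Members of 1 subfamily thus differed in their call. Meis1 and Meis3 rose while Meis2 did not pass, and Pbx4 rose while Pbx2 and Pbx3 did not pass, although the differences between the members' fold changes were not tested. Pbx2, Pknox1 and Tgif1 all lie on chromosome 17, and of these Tgif1 rose, Pknox1 fell and Pbx2 did not pass. Meis2 and Pbx3 both lie on chromosome 2, and neither passed.

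**Figure D3:**
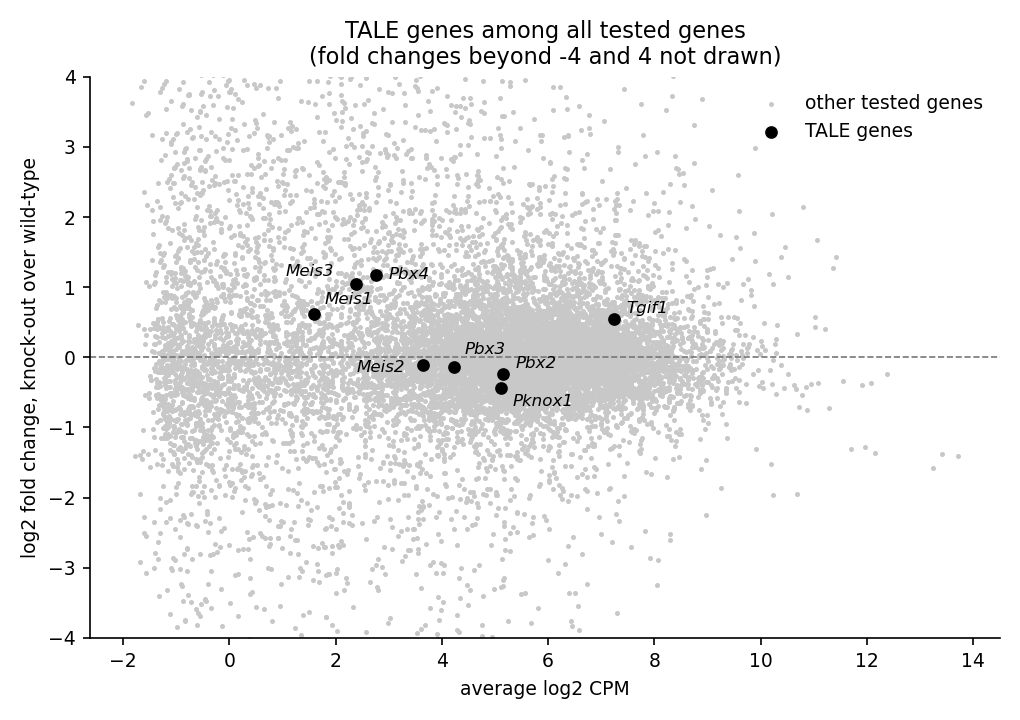
Log2 fold change, knock-out over wild-type, against average log2 CPM for all tested genes (grey points) and the 8 TALE genes (black, labelled), on linear axes of log2 values. The TALE genes lie between -0.43 and 1.17 within the cloud of other genes, and 982 genes beyond -4 or 4 are not drawn.

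Levels of different genes were compared per kilobase of annotated exon, as RPKM. In the knock-out, Tgif1 was highest at 31.8 ± 1.26 RPKM, followed by Pbx2 at 8.98 ± 0.453, Pknox1 at 4.21 ± 0.337, Pbx4 at 4.17 ± 0.543, Pbx3 at 2.91 ± 0.124, Meis3 at 2.17 ± 0.0560, Meis2 at 0.990 ± 0.102 and Meis1 at 0.335 ± 0.0297 RPKM (SD, n = 3 each). In the wild type, Tgif1 was again highest at 21.7 ± 1.31 RPKM, followed by Pbx2 at 10.6 ± 0.609, Pknox1 at 5.70 ± 0.340, Pbx3 at 3.19 ± 0.312, Pbx4 at 1.86 ± 0.286, Meis3 at 1.07 ± 0.356, Meis2 at 1.07 ± 0.161 and Meis1 at 0.218 ± 0.0119 RPKM. Neighbours in this order whose libraries overlapped were Pknox1 and Pbx4 in knock-out tumoroids and Meis3 and Meis2 in the wild type. All other neighbours were separate in all libraries. These orders rest on the exon length used. That of Pbx4 and Pbx3 in the knock-out and that of Meis3 and Meis2 in the wild type depend on it.

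Summed by role, the 3 Meis genes reached 3.50 ± 0.158 RPKM in knock-out tumoroids and 2.36 ± 0.214 RPKM in the wild type, and their ranges did not overlap. The 3 Pbx genes together had 16.1 ± 0.766 RPKM in knock-out tumoroids and 15.6 ± 0.674 RPKM in the wild type, with overlapping ranges (exact permutation test, two-sided p = 0.6). The 8 genes other than Tgif1 summed to 23.8 ± 0.317 RPKM in knock-out tumoroids and 23.7 ± 1.15 RPKM in the wild type (exact permutation test, two-sided p = 1). With 3 libraries against 3, the exact permutation test cannot give a p under 0.1. It gave 0.1 for the Meis sum, for Pknox1, for Tgif1 and for the sum of all 9 genes.

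As shares of the summed level of the 9 genes, Tgif1 made up 57.2 ± 0.825% in knock-out tumoroids and 47.8 ± 2.11% in the wild type. Pbx2 made up 16.2 ± 0.851% in knock-out tumoroids and 23.3 ± 1.78% in the wild type, and Pknox1 7.60 ± 0.798% in knock-out tumoroids and 12.6 ± 0.663% in the wild type. Pbx4 made up 7.49 ± 0.784% in knock-out tumoroids and 4.09 ± 0.530% in the wild type, and Meis3 3.92 ± 0.185% in knock-out tumoroids and 2.35 ± 0.712% in the wild type. The shares of the 8 detected genes did not overlap between the genotypes, each with the smallest p that the exact permutation test can give (two-sided p = 0.1, also after Benjamini-Hochberg adjustment over 8 shares). Shares sum to a whole, so a larger Tgif1 share lowers those of the other genes, and the 8 shares are not 8 separate results. Meis2 and Pbx3 overlapped between the genotypes in CPM and did not pass the edgeR test, although their shares did not overlap.

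The Hox genes, beside whose proteins Pbx proteins bind DNA, were detected almost only in the knock-out. Of 38 Hox genes looked up, 9 passed the filter and all 9 were higher in the knock-out, and 26 had 0 counts in all libraries. The tested ones were at or near 0 in the wild type and passed the filter only through the knock-out, so this count had to come out in that direction. They were Hoxa2 to Hoxa7, Hoxa9, Hoxa10 and Hoxb4. Hoxa7 had 108, 127 and 110 CPM in knock-out tumoroids and 1 count over the wild-type libraries, while Hoxb4 had 1.75 ± 0.662 CPM in knock-out tumoroids and 0.0694 ± 0.0671 CPM in the wild type (edgeR adjusted p = 4.97e-05). Over the whole Hox list, summed levels ran from 467 to 520.4 CPM in knock-out tumoroids and from 0.0484 to 0.469 CPM in the wild type. Of 7 further TALE genes, Irx1 to Irx6 and Mkx, only Irx3 passed the filter, at 0.833 ± 0.324 CPM in knock-out tumoroids and 0.0495 ± 0.0858 CPM in the wild type (edgeR adjusted p = 0.00213). Irx3 too passed the filter only through the knock-out, with 4 counts over the wild-type libraries, so its direction was fixed. Irx4, which was not tested, had 0 counts in the knock-out against 8 in the wild type, all of them in wild-type replicate 1.

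Tgif1 is known to recruit corepressors, and 8 genes of that machinery were all tested. Of these, 4 rose and 2 fell, beside 57.4% of all genes that passed in either direction, and the median of the 8 log2 fold changes was 0.06. Ski, a Smad corepressor, rose 1.62-fold to 142 ± 13.0 CPM in the knock-out, against 87.7 ± 1.51 CPM in the wild type (edgeR adjusted p = 1.82e-05), and its relative Skil had 61.4 ± 13.2 CPM in knock-out tumoroids and 33.2 ± 10.04 CPM in the wild type (adjusted p = 0.00244). In the other direction Ctbp2, a corepressor that Tgif1 binds directly, had 73.7, 66.8 and 75.9 CPM in knock-out tumoroids and 106, 109 and 112 CPM in the wild type, a 1.51-fold fall (adjusted p = 4.87e-05). The histone deacetylase gene Hdac2 also fell (1.20-fold, adjusted p = 0.00509), while its relative Hdac1 and Ctbp1 rose by 1.21-fold and 1.14-fold (adjusted p = 0.0276 and 0.0341). Sin3a and Ncor1 did not pass (adjusted p = 0.493 and 0.338). The number that rose was 2 without knock-out replicate 2 or without wild-type replicate 2.

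**Figure D4:**
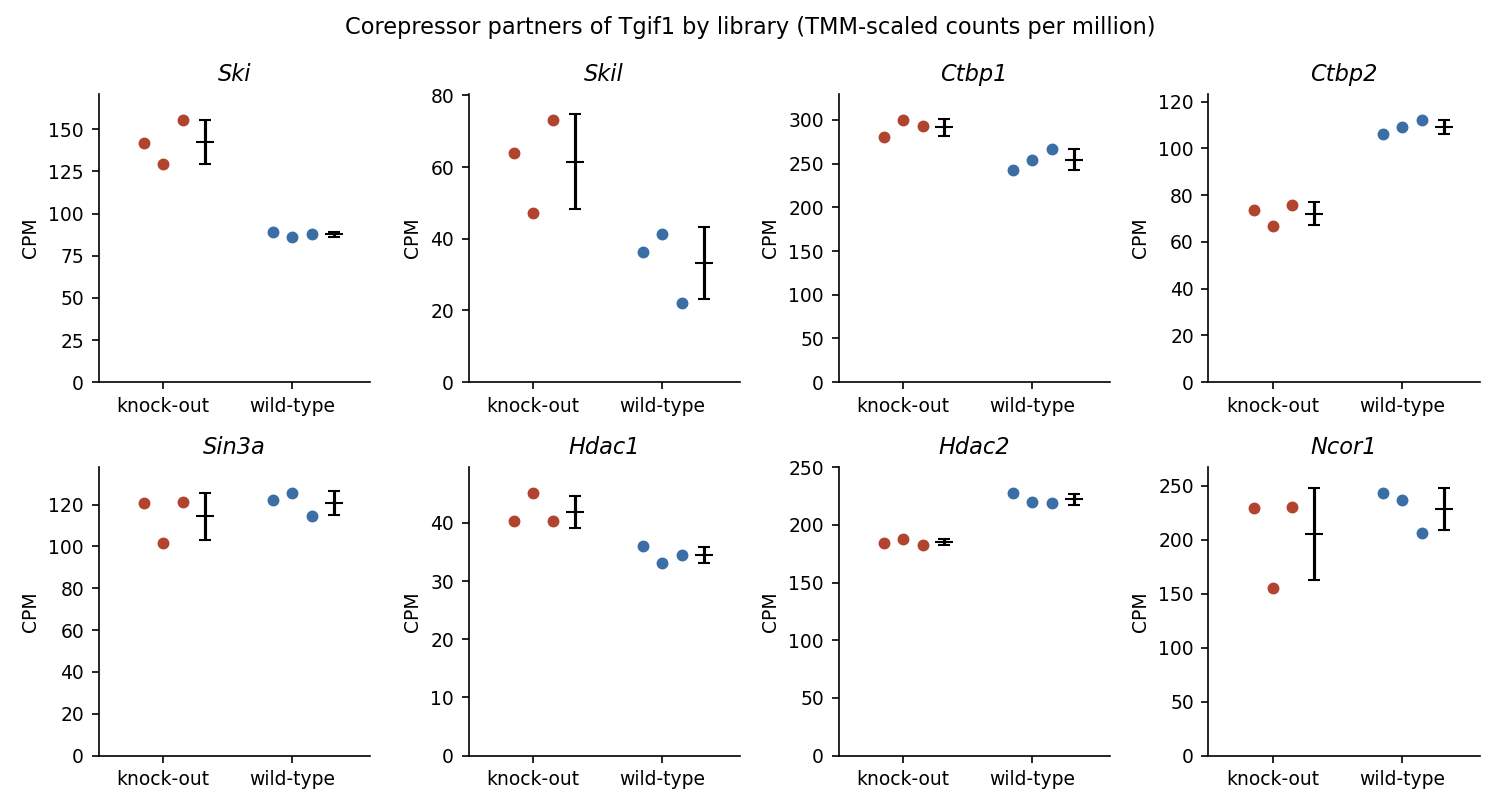
TMM-scaled CPM (linear axes from 0) of 8 corepressor genes, with 1 point for each of 3 knock-out (left) and 3 wild-type (right) libraries, and a bar with caps for the mean and SD. Ski sits higher in every knock-out library and Ctbp2 lower, while Sin3a and Ncor1 overlap.

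Retinoic acid is a known inducer of Meis genes, and Tgif1 restrains its receptors. Of 13 genes of the retinoic acid response, 8 were tested, of which 5 rose (Stra6, Rara, Rarg, Rxra and Cyp26b1) and 2 fell (Rarb and Rxrb). Over all genes tested 57.4% passed, and Cyp26b1 and Rarb passed the filter only through the genotype where they were high. The median of the 8 log2 fold changes was 1.06. Stra6, the membrane receptor for vitamin A uptake, had 270, 339 and 304 CPM in knock-out tumoroids and 2.410, 1.501 and 1.448 CPM in the wild type (edgeR adjusted p = 7.41e-12). Among the receptors, Rarg rose 5.24-fold to 95.4 ± 2.73 CPM in the knock-out, against 18.2 ± 1.70 CPM in the wild type (edgeR adjusted p = 1.03e-09), and Rara rose 2.29-fold to 46.2 ± 1.24 CPM in the knock-out, against 20.2 ± 0.880 CPM in the wild type (edgeR adjusted p = 5.45e-07). Rarb, a receptor gene that retinoic acid itself induces, had 2 counts in the knock-out against 122 in the wild type, and Cyp26b1, an enzyme that breaks retinoic acid down, had 62 counts in the knock-out against 2 in the wild type. Its inducible relative Cyp26a1 had 0 counts in all libraries.

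Sites for the proteins were looked for as letters in the RefSeq promoter windows of GRCm38.p6, which run from 250 bases before to 50 after each start. Windows were found for 6 of the 9 genes, Meis1, Meis2, Meis3, Pbx2, Pbx4 and Tgif1. On both strands, TGACAG, the core site of Meis, Pknox and Tgif proteins, is in 19.2% of all 32851 windows. TGATTNAT, a Hox and Pbx site, is in 3.22%. The single windows of Meis1, Meis2, Meis3, Pbx2 and Pbx4 held neither of these runs of letters. Of the 5 windows of Tgif1, 2 held TGACAG and 1 held TGATTTAT. Of these, 2 are printed here on the minus strand of chromosome 17, 5′ to 3′, with the matches in capitals, because Tgif1 is the member with the firmest change. The first is chr17:70851161-70851460, with the match at position 6 after the start, and the second is chr17:70849741-70850040, with the match at position -134.
Tgif1, first window: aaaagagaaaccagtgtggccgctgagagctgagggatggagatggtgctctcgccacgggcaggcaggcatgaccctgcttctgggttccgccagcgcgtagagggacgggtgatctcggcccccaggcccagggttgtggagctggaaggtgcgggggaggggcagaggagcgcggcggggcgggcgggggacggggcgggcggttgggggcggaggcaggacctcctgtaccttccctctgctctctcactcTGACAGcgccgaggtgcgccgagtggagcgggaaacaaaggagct
Tgif1, second window: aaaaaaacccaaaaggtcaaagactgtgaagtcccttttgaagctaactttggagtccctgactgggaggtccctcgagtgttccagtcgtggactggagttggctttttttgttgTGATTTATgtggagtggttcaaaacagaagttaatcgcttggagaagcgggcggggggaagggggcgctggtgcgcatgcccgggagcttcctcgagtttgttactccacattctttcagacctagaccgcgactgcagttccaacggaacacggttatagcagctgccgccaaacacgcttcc
The third match, TGACAG at position 39 after the start in the window chr17:70846728-70847027, is not printed. A match is a run of letters and not a measured site, and a count per gene does not show which start was used.

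Bulk counts cannot tell fewer cells of a type from less RNA per cell. Some markers of other cell types moved with the genotype. The 7 haematopoietic markers summed to 23.1 to 23.7 CPM in knock-out tumoroids and 3.72 to 6.97 CPM in the wild type. Csf1r (974 counts in the knock-out, 53 in the wild type) and Cd68 (1065 counts in the knock-out, 265 in the wild type) made up most of this sum. Ptprc also had more counts in the knock-out (39, against 2 in the wild type), Itgam and Lyz2 had fewer (8 and 0, against 46 and 19 in the wild type), and Cd3e and Tyrobp were at 0. Csf1r and Ptprc were at or near 0 in at least 1 wild-type library and passed the filter through the knock-out, which fixed their direction.

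In the other 4 marker lists, 1 gene made up most of the sum in the genotype where the sum was higher. The fibroblast markers summed to 0.452 to 0.884 CPM in knock-out tumoroids and 0.167 to 0.339 CPM in the wild type, with Col1a1 at 59 counts in the knock-out against 2 in the wild type. Pdgfra and Postn had no count in the knock-out, against 13 and 5 in the wild type, and 6 of the 10 markers were at 0, among them Col3a1 and Dcn. The enteric neuron and glia markers summed to 9.51 to 10.5 CPM in knock-out tumoroids and 0.670 to 2.91 CPM in the wild type, with Ret at 816 counts in the knock-out against 42 in the wild type. Tubb3 had 51 counts in the knock-out against 60 in the wild type and did not pass, and Sox10 and Elavl4 were at 0. The smooth muscle markers summed to 0.194 to 0.473 CPM in the knock-out, against 9.25 to 18.4 CPM in the wild type, with Acta2 at 11 counts in the knock-out against 925 in the wild type. Of the other 5, Cnn1 was at 0 and none had more than 11 counts in a genotype. The endothelial markers summed to 0.299 to 0.442 CPM in the knock-out, against 9.93 to 14.5 CPM in the wild type, with Tek at 25 counts in the knock-out against 941 in the wild type. Pecam1 had 7 counts in the knock-out against 5 in the wild type, Cdh5 had 3 in the knock-out against 4 in the wild type, and Kdr, Emcn and Cldn5 were at 0. Whether cells of these types were present, and what part they had in the levels of the TALE genes, was not tested.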

How the data were processed

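Total RNA of 3 biological replicates per genotype went into stranded, polyA-selected libraries, per the labels' protocols, and reads were aligned with STAR to GRCm38, per the submitters' processing notes. Not given in the sources used here are the version of STAR, the counting program with its strand setting, and which annotation release was counted. The authors deposited raw counts per Ensembl gene identifier, with 26250 of 49585 identifiers at 0 in all libraries. Symbols, coordinates and exon lengths came from GENCODE M21 (GRCm38), which named 49326 identifiers. Exons of Meis1, Pbx2 and Pknox1 overlap other annotated genes, and those in the tables had at most 6 counts in a library. The stretches shared on the same strand cover 9.77% of Meis1 and 6.24% of Pbx2 exons, where reads of both genes cannot be told apart.

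Deposited counts were fitted with edgeR 4.0.16 in R 4.3.3 and tested by its quasi-likelihood method. The model held genotype alone, libraries were scaled by TMM, and the default filterByExpr filter left 13759 genes. Standard errors are the fitted coefficient over the square root of F. CPM and RPKM (per kilobase of union exon) were computed from the TMM-scaled counts. Precision follows the counts: a CPM of 1 is 20.7 to 31.9 counts per library. A gene at 0 was given a limit of 3 counts, pooled over its genotype. No 2 libraries of the same genotype agreed within sampling noise, so all 6 were kept. The fit was also run on counts simulated from its own estimates. Far fewer genes were changed there than passed here, so scaling under changes this wide was not tested.

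Named genes are all 9 members, Chuk and up to 3 genes per list with the smallest adjusted p. The other genes named from the lists, among them Hoxb4, Rarb, Cyp26a1 and Cdx1, the remaining corepressor and leukaemia genes and single cell type markers, and the neighbours Lpar2, Cbs and Ndufv3, were picked with their values in view. The members and lists were chosen with earlier results of these data known, and some genes of the lists are not reported here. Alternatives were other scalings, filters and tests (DESeq2 1.42.0, limma 3.58.1), a replicate term, other lengths and leaving out each library.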

Additional observations from a re-analysis of the deposited data

How the results depend on the processing

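Over 17 other settings per gene, Meis3, Pbx4, Pknox1 and Tgif1 passed the test in the same direction in all 17, with log2 fold changes of 0.77 to 1.32, 1.03 to 1.28, -0.49 to -0.40 and 0.49 to 0.59. Meis1 passed in 4 of 17. The number of members called lower was 2 in place of 1 under upper-quartile scaling, among protein-coding genes only and without knock-out replicate 2, where Pbx2 passed, with adjusted p down to 0.0212, and 1 to 2 when each library was left out in turn. The number called higher was 3 to 4. The sign of the log2 fold change of Meis2 turned without wild-type replicate 1 (-0.18 to 0.024 over the 6 leave-outs). The log2 fold change of Tubb3, an enteric neuron marker, turned without wild-type replicate 2 (-0.94 to 0.69 over the leave-outs). Of the 8 corepressor genes, 2 in place of 4 were called higher under upper-quartile scaling, with no filter on low counts, with the replicate block, at an adjusted p of 0.01, and without knock-out replicate 2 or wild-type replicate 2. The replicate numbers did not pair the libraries: deviations from the genotype means correlated at 0.04, -0.04 and -0.08 for the same numbers. With the replicate block, 3 members were higher and 1 lower, and 7432 genes passed in place of 7896. Scaling moved the median of all genes to -0.05 at most. Shares kept their direction under other lengths and without each library. The causes of the changes above were not tested. Depth limits Meis1, with 46 to 120 counts per library.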

Other observations

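In leukaemia, HOXA9 and MEIS1 are known to act together on a set of target genes, and 13 of these were looked up as a list. Of 6 that passed the filter, Id2, an inhibitor of helix-loop-helix factors, was higher in the knock-out, at 405 ± 11.7 CPM in knock-out tumoroids and 94.9 ± 2.99 CPM in the wild type (SD, n = 3 each, edgeR adjusted p = 2.35e-10). Myb, a factor of progenitor cells, was lower, at 2.94 ± 0.656 CPM in knock-out tumoroids and 133 ± 7.78 CPM in the wild type (edgeR adjusted p = 1.35e-11). Dach1 had no count in knock-out tumoroids and 29.9 ± 2.75 CPM in the wild type, at least 896-fold lower, and passed the filter only through the wild type. Over all genes tested 57.4% passed. Sox4, Bcl2 and Ccnd3 did not pass (adjusted p = 0.184, 0.227 and 0.123).

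The nearest tested gene on each side of the 8 tested members was also read. Of these 16 neighbours, 5 were called higher and 1 lower, beside 30.4% and 27.0% of all genes tested. Beside the 5 members that passed, 3 of 10 neighbours were called in the same direction as the member and 1 in the other. Lpar2, which lies 1389 bases from Pbx4, was higher in the knock-out (log2 fold change 0.67, edgeR adjusted p = 0.000124). Cbs, which lies 1201 bases from Pknox1, was higher in the knock-out, at 32.4 CPM in knock-out tumoroids and 4.51 CPM in the wild type (edgeR adjusted p = 7.32e-07), whereas Ndufv3, on the other side of Pknox1, was lower like Pknox1, at 30.1 CPM in knock-out tumoroids and 52.2 CPM in the wild type (edgeR adjusted p = 6.44e-05).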
